A study of Mus musculus with 12 samples.

Results

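The 10 genes described here encode the interleukin-10 (IL-10) ligand, its receptor, the signalling proteins behind the receptor and genes that the receptor induces. They were taken by symbol from the deposited table, as 10 of 55401 genes, and all 10 reached at least 1 FPKM in at least 3 libraries, the filter that left 15813 genes for testing. FPKM values are read fragments scaled to the length of the transcript and the size of the library, so levels can be set side by side between genes. The ligand is Il10, the receptor chains are Il10ra and Il10rb, the kinases are Jak1 and Tyk2, the transcription factor is Stat3, and Socs3 encodes the feedback inhibitor. Bcl3, Il4ra and Nfil3 are genes that IL-10 induces in macrophages.

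IL-10 binds the chain encoded by Il10ra, which then recruits the chain encoded by Il10rb, a chain that receptors of related cytokines share. The kinases JAK1 and TYK2, bound to these chains, phosphorylate STAT3, which enters the nucleus and drives genes such as Socs3. Il10ra is expressed mainly in leukocytes, while Stat3, Jak1 and Il10rb are found in most cell types, so that in tumour tissue the receptor marks immune cells and the rest of the pathway does not. STAT3 is best known from phosphorylation, which RNA does not measure.

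RNA was sequenced from 12 tumour libraries in 4 treatment groups of 3, each labelled as an orthotopic tumour grown from MTC-Q1 mouse oral cancer cells in C57BL/6 mice. The groups were given IgG as a control (Ctrl-IgG), an antibody to CSF1R, the receptor of a macrophage growth factor (aCSF1R), IL-10 carried on an immunoglobulin Fc (IL-10-Fc), or BF10, in which human IL-10 is fused to the CSF1R antibody, and treatment began at a tumour size of 100 mm3. The study's methods give the mice as 6 to 8 weeks old, the sex is not given, and the labels state 6 doses in one place and 4 in another. The design asks what the fusion changes and what each of its components changes alone. The IL-10 given is a protein, so the Il10 values count transcripts of the mouse gene.

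Against those labels, the libraries fell into 2 sets that follow the treatment. H2-Ea, an MHC class II gene that C57BL/6 mice do not express, was at 0.04 to 0.27 FPKM in all 6 libraries of Ctrl-IgG or aCSF1R tumours and at 553 to 1727 FPKM in all 6 of IL-10-Fc or BF10 tumours. Xist, which female cells express, was at 0.01 to 0.04 and 17.1 to 30.7 FPKM in the same order, and the epithelial keratin Krt8 at 0.06 to 0.28 and 169 to 618 FPKM. Eif2s3y, a Y-linked gene, was at 4.23 to 11.3 FPKM in the former set and at 0 to 0.05 in the latter, except for BF10 replicate 3 at 3.29. Squamous keratin Krt5 was at 2.38 FPKM at most in the latter and split the former. It was at 138 in Ctrl-IgG replicate 3 and 56.4 and 101 in aCSF1R replicates 1 and 2. In Ctrl-IgG replicates 1 and 2 and aCSF1R replicate 3 it was at 0.04, 0 and 0. Sums of skeletal muscle markers were 988, 638 and 610 FPKM, against 46.9, 32.2 and 87.7, in the same order. The part of this uneven split in aCSF1R minus Ctrl-IgG was not tested. The study also treated 4T1 tumours in BALB/c mice, a strain that expresses H2-Ea, and whether libraries of the 2 models were exchanged was not tested. IL-10-Fc and BF10 below therefore stand for the libraries with those labels. In any comparison across the sets, the agent and what separates the sets cannot be told apart. The comparisons that stay within a set are aCSF1R minus Ctrl-IgG and BF10 minus IL-10-Fc. Another split crossed the groups. Replicates 1 and 2 of IL-10-Fc, replicate 1 of BF10 and replicate 2 of Ctrl-IgG had FPKM sums of 819001 to 976950 and mitochondrial shares of 6.57% to 9.04%, against 637596 to 701275 and 2.99% to 3.61% in the other 8. These 4 are called the high-sum libraries below, and main results are also given without them, a choice made after the values were seen. Sample titles carry unexplained codes, and the high-sum libraries were C2 (both of IL-10-Fc), C4 (BF10) and C1 (Ctrl-IgG). The other libraries of IL-10-Fc and BF10 were C6 or C7, so the FPKM sum and the title code cannot be told apart there. Ctrl-IgG replicate 1 (C1) and aCSF1R replicates 1 and 2 (C3) were not high-sum.

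In level, Stat3 and Socs3 led the pathway and the ligand came last. Mean FPKM over the 12 libraries was 43.5 ± 21.3 (SD, n = 12) for Stat3, 38.07 ± 17.2 for Socs3, 33.0 ± 5.32 for Jak1, 26.9 ± 13.2 for Il4ra and 21.9 ± 9.11 for Il10rb. Nfil3 followed at 14.5 ± 6.54 and Bcl3 at 13.1 ± 4.58, then Il10ra at 6.57 ± 3.17, Tyk2 at 6.55 ± 3.36 and Il10 at 1.47 ± 0.658. Among aCSF1R libraries, where all 3 had like sums, Stat3 lay above Socs3, Jak1 above Il10rb, Il10rb above Il4ra, Nfil3 above Bcl3, Bcl3 above Tyk2, Tyk2 above Il10ra and Il10ra above Il10 without overlap. Neighbours Socs3 and Jak1 overlapped there, as did Il4ra and Nfil3. In Ctrl-IgG and IL-10-Fc, where high-sum libraries widened the ranges, only Il10 was set apart from its neighbour.

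**Figure D1:**
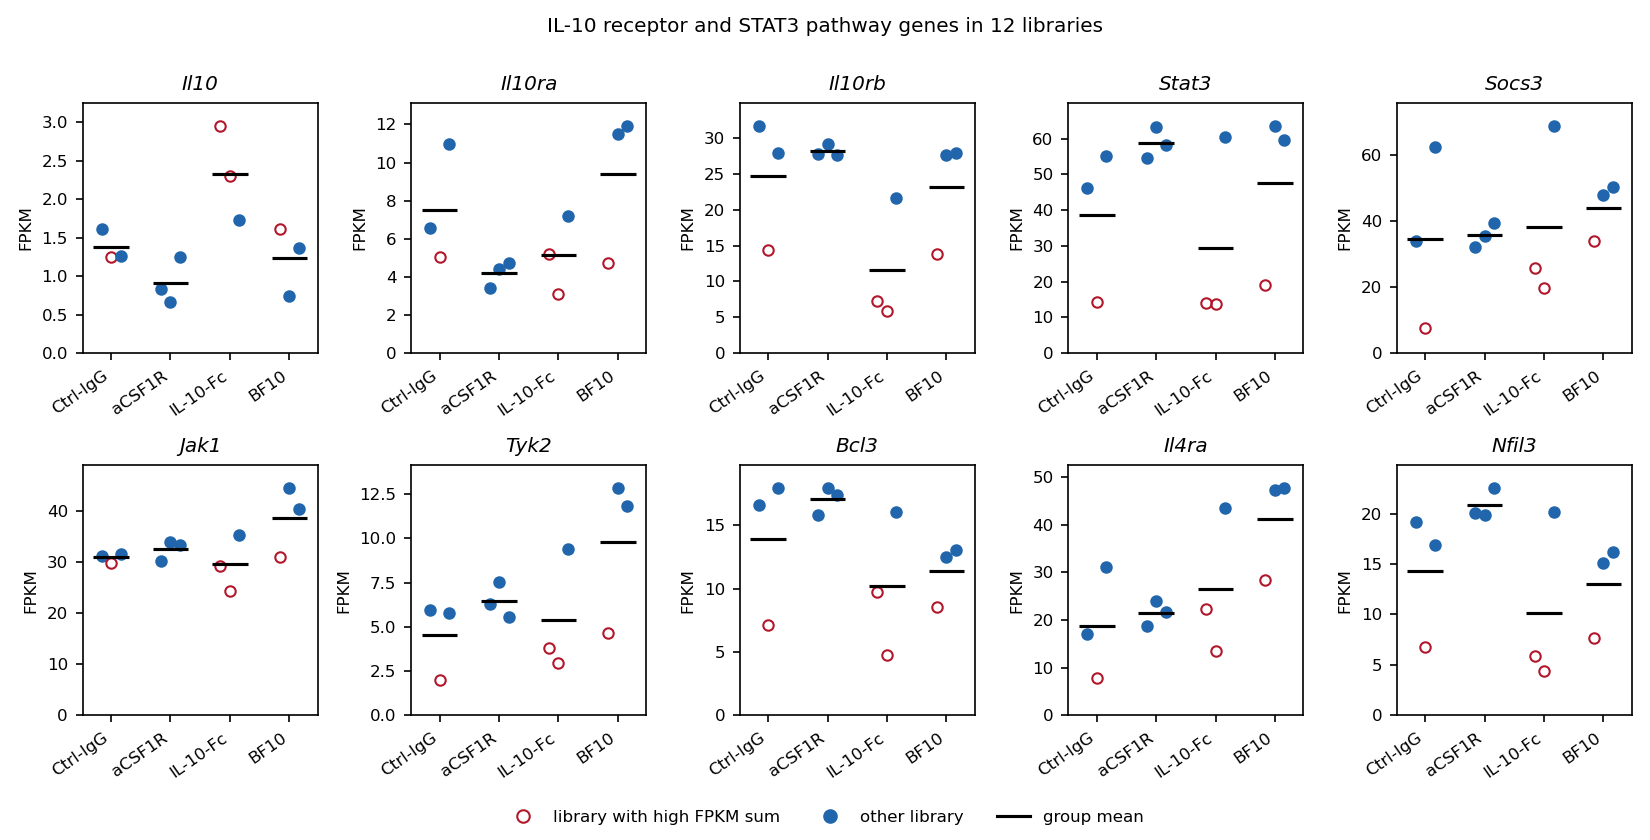
FPKM of the 10 genes (y axis, linear, from 0) in the 4 treatment groups (x axis), 1 point per library, with open red points for the 4 high-sum libraries, filled blue points for the other 8 and a bar at the group mean. Open points lie below filled ones in every panel of Il10rb, Stat3, Tyk2, Bcl3 and Nfil3, while in Il10 the highest points, 2.96 and 2.31 FPKM, are open.

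Il10, the ligand (chromosome 1, 131019845 to 131024974, plus strand, GRCm38), was at 1.62, 1.25 and 1.27 FPKM in Ctrl-IgG replicates 1 to 3, at 0.83, 0.67 and 1.25 in aCSF1R, at 2.96, 2.31 and 1.73 in IL-10-Fc and at 1.62, 0.74 and 1.37 in BF10. The 3 IL-10-Fc libraries lay above all 9 others, and the other 3 groups overlapped. IL-10-Fc exceeded aCSF1R by 0.79 ± 0.23 (SE) on the log2(FPKM + 1) scale (limma, Benjamini-Hochberg adjusted p = 0.0175), a call that was lost without aCSF1R replicate 1 or 2 or IL-10-Fc replicate 1. Without the high-sum libraries, which leaves IL-10-Fc replicate 3 alone in its group, the difference was 0.52 (adjusted p = 0.1498). BF10 against IL-10-Fc gave -0.58 ± 0.23, with an unadjusted p of 0.0272 and an adjusted p of 0.478. Because these are bulk tumours, fewer cells of a type and less RNA per cell cannot be told apart here or in any later comparison.

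Il10ra, the ligand-binding chain (chromosome 9, 45253837 to 45269149, minus strand), was at 6.58, 5.03 and 10.98 FPKM in Ctrl-IgG, 3.44, 4.41 and 4.71 in aCSF1R, 5.22, 3.09 and 7.21 in IL-10-Fc and at 4.75, 11.49 and 11.94 in BF10. The aCSF1R libraries lay below all 3 Ctrl-IgG libraries and below all 3 BF10 libraries, in the latter case by as little as 4.71 against 4.75. The difference of aCSF1R from Ctrl-IgG was -0.67 ± 0.39 (95% interval -1.52 to 0.19, adjusted p = 0.958) and did not pass the test. BF10 against aCSF1R gave 0.92 ± 0.39 (adjusted p = 0.109), and 1.302 ± 0.22 (adjusted p = 0.00324) without the high-sum libraries. It also passed without BF10 replicate 1 alone (1.302, adjusted p = 0.0273). The leukocyte marker sum (Ptprc, Coro1a, Laptm5, Cd53, Itgb2 and Cd52) moved the same way, from 180 to 271 FPKM in aCSF1R to 551 to 690 in BF10, and so did the macrophage sum of 8 genes, from 347 to 378 to 2005 to 2501 FPKM. Lyz2 was the largest part of the latter in BF10. Of these genes, Laptm5 and Cd68 overlapped between the groups. BF10 replicate 1 lay below every aCSF1R library in Laptm5 (17.1 against 28.7 to 33.6 FPKM) and Cd68 (32.4 against 41.7 to 53.7). In aCSF1R against Ctrl-IgG, the leukocyte sum was 180 to 271 against 282 to 454 FPKM and the macrophage sum 347 to 378 against 482 to 976. No gene of either list was called there, and Coro1a, Laptm5, Cd53, Itgb2, Csf1r, Cd68, Mrc1 and Lyz2 overlapped. Their part in the Il10ra difference was not tested.

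Set against leukocyte genes, Il10ra gave an answer that depended on the gene chosen. Ptprc encodes the leukocyte protein CD45, and the ratio of Il10ra to Ptprc FPKM was 0.341, 0.116 and 0.579 in Ctrl-IgG, 0.241, 0.279 and 0.252 in aCSF1R, 0.104, 0.0797 and 0.367 in IL-10-Fc and at 0.134, 0.243 and 0.307 in BF10, and every pair of groups overlapped. The 4 high-sum libraries had the lowest ratios, 0.0797 to 0.134, against 0.241 to 0.579 in the other 8. On the log2 scale aCSF1R differed from Ctrl-IgG by -0.15 (two-sided exact permutation p = 0.8, adjusted over the 2 comparisons 0.8) and BF10 from IL-10-Fc by 0.57 (exact permutation p = 0.5, adjusted 0.8), where 3 against 3 cannot give a p under 0.1. Both signs turned in an alternative, to 0.37 without Ctrl-IgG replicate 3 for the former and to -0.43 without the high-sum libraries for the latter. Against the mean of Coro1a, Laptm5, Cd53 and Itgb2 in place of Ptprc, the ratio was 0.127 to 0.225 in Ctrl-IgG, 0.134 to 0.141 in aCSF1R, 0.0432 to 0.118 in IL-10-Fc and 0.0767 to 0.129 in BF10. All IL-10-Fc libraries then lay below all Ctrl-IgG and all aCSF1R libraries, and all BF10 libraries below all aCSF1R libraries, the opposite direction to Il10ra itself in BF10 and aCSF1R. These differences across the sets were not tested.

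**Figure D2:**
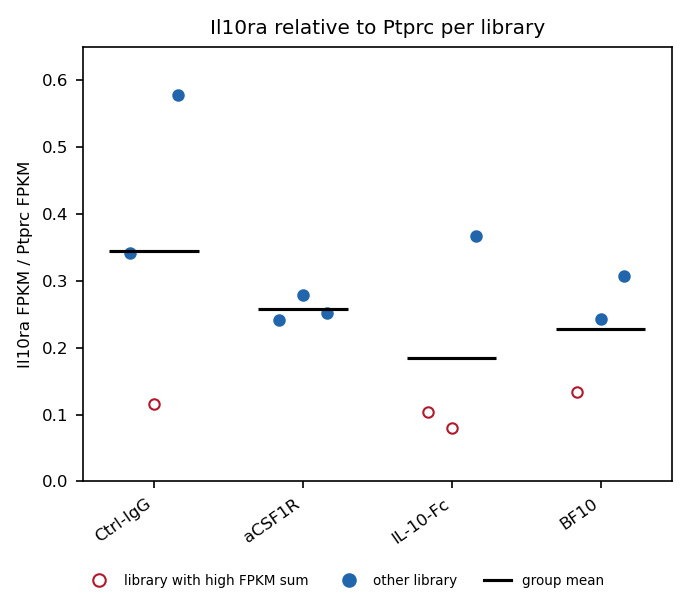
Ratio of Il10ra to Ptprc FPKM (y axis, linear, from 0) in each library of the 4 groups (x axis), with open red points for the high-sum libraries, filled blue points for the others and a bar at the group mean. The open points sit between 0.0797 and 0.134, below every filled point.

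Il10rb, the shared chain (chromosome 16, 91406164 to 91425834, plus strand), was at 31.71, 14.32 and 27.95 FPKM in Ctrl-IgG, 27.79, 29.11 and 27.57 in aCSF1R, 7.34, 5.86 and 21.65 in IL-10-Fc and at 13.83, 27.65 and 27.94 in BF10. Libraries outside the high-sum set stayed between 21.7 and 31.7 FPKM in every group, and the 4 high-sum libraries were at 5.86 to 14.3. IL-10-Fc was lower than aCSF1R by limma (-1.42 ± 0.46, adjusted p = 0.0294), without overlap. Leaving out any single library of these 2 groups other than IL-10-Fc replicate 3 ended that call, and without the high-sum libraries the value was -0.36 (adjusted p = 0.0260, below the 1.5-fold limit). Its direction held under TPM scaling (-1.73), median-of-ratios size factors (-0.82) and quantile normalization (-0.80). With the FPKM sum as a covariate it was -0.52 and with all genes above 0 FPKM tested -1.42 (adjusted p = 0.0586), and neither was called.

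Jak1 encodes the kinase bound to the ligand-binding chain and was the steadiest of the 10, from 24.4 to 44.6 FPKM, a 1.83-fold range. It was at 31.31, 29.87 and 31.7 FPKM in Ctrl-IgG, 30.26, 33.9 and 33.46 in aCSF1R, 29.24, 24.36 and 35.38 in IL-10-Fc and at 31.12, 44.62 and 40.42 in BF10. No comparison called it: aCSF1R against Ctrl-IgG gave 0.07 (95% interval -0.37 to 0.51) and BF10 against IL-10-Fc 0.37 (-0.07 to 0.82). Without the high-sum libraries BF10 exceeded Ctrl-IgG by 0.42 (limma, adjusted p = 0.00970) and aCSF1R by 0.38 (adjusted p = 0.00932), each below the 1.5-fold limit. Tyk2, whose product binds the other chain, spread 6.53-fold and was at 5.94, 1.97 and 5.79 FPKM in Ctrl-IgG, 6.31, 7.53 and 5.56 in aCSF1R, 3.79, 2.94 and 9.42 in IL-10-Fc and at 4.65, 12.86 and 11.85 in BF10. Its highest values were the 3 libraries of IL-10-Fc and BF10 outside the high-sum set. BF10 against Ctrl-IgG was 0.95 ± 0.47 (adjusted p = 0.179) with all libraries, and 0.96 ± 0.15 (adjusted p = 0.00297) without the high-sum libraries, a nearly equal size with a smaller error.

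Stat3 (chromosome 11, 100885098 to 100939540, minus strand) was lowest in the 4 high-sum libraries, which are spread unevenly over the treatments. It was at 46.24, 14.44 and 55.15 FPKM in Ctrl-IgG, 54.69, 63.11 and 58.22 in aCSF1R, 13.99, 13.87 and 60.31 in IL-10-Fc and at 19.21, 63.62 and 59.71 in BF10. The 4 high-sum libraries lay at 13.9 to 19.2 FPKM and the other 8 at 46.2 to 63.6, with medians of 14.2 and 59.0. No comparison called Stat3. Without the high-sum libraries its 4 differences between IL-10-Fc or BF10 and the other groups were 0.25, 0.04, 0.28 and 0.07, in the order IL-10-Fc against Ctrl-IgG, IL-10-Fc against aCSF1R, BF10 against Ctrl-IgG and BF10 against aCSF1R.

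Socs3 encodes an inhibitor that STAT3 induces and that blocks receptors of the IL-6 family more than the IL-10 receptor. Among the 7 of 10 genes with a promoter window in RefSeq (GRCm38.p6, 250 bases before to 50 after the start; Il10, Il10ra and Il10rb were the others), it was the 1 gene whose window held the letters TTCNNNGAA (N for any base), the core that STAT dimers bind, which reads the same on both strands. Of all 32851 windows, 8.30% held it. The stretch is shown because it is the one STAT-type match among the members, with the match in capitals and the flanks in lower case (chr11:117969502-117969530, minus strand, first capital 154 bases before the RefSeq start):
Socs3: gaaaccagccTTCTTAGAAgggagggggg
In GENCODE M21 it lies in an intron of a longer non-coding Socs3 transcript and upstream of the coding one. A match in letters is a description of the window and no STAT3 binding was measured.

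Socs3 itself was at 33.87, 7.54 and 62.19 FPKM in Ctrl-IgG, 32.13, 35.56 and 39.45 in aCSF1R, 25.7, 19.59 and 68.81 in IL-10-Fc and at 34.03, 47.89 and 50.12 in BF10. Every pair of groups overlapped. Within the high-sum libraries alone, the 3 of IL-10-Fc and BF10 (19.6 to 34.0 FPKM) lay above the 1 of Ctrl-IgG (7.54). No comparison called it with all libraries. IL-10-Fc against aCSF1R turned from -0.12 ± 0.64 (adjusted p = 0.890) to 0.93 ± 0.30 (adjusted p = 0.0443) without the high-sum libraries, which then rests on IL-10-Fc replicate 3 alone at 68.8 FPKM.

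Bcl3, an IκB family member that IL-10 induces, was at 16.61, 7.16 and 17.93 FPKM in Ctrl-IgG, 15.78, 17.96 and 17.38 in aCSF1R, 9.76, 4.77 and 16.03 in IL-10-Fc and at 8.53, 12.53 and 13.06 in BF10. All BF10 libraries lay below all aCSF1R libraries (-0.56 ± 0.41, adjusted p = 0.348). Nfil3, a bZIP transcription factor, was at 19.17, 6.76 and 16.85 FPKM in Ctrl-IgG, 20.02, 19.87 and 22.56 in aCSF1R, 5.84, 4.41 and 20.14 in IL-10-Fc and at 7.66, 15.14 and 16.14 in BF10. It too was lower in every BF10 than in every aCSF1R library (-0.70 ± 0.52, adjusted p = 0.351), and higher in every aCSF1R than in every Ctrl-IgG library (0.63 ± 0.52, adjusted p = 0.958). None of these 3 differences passed the test. Without the high-sum libraries, BF10 against aCSF1R gave -0.39 for Bcl3 (limma, adjusted p = 0.0122) and -0.39 for Nfil3 (adjusted p = 0.0161), below the 1.5-fold limit. The Nfil3 difference of aCSF1R from Ctrl-IgG was then 0.20.

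Il4ra, the receptor chain for IL-4 and IL-13 that IL-10 raises in macrophages, had the largest BF10 difference of the 10 genes against Ctrl-IgG. It was at 17.03, 7.94 and 31.05 FPKM in Ctrl-IgG, 18.72, 24.06 and 21.61 in aCSF1R, 22.35, 13.5 and 43.45 in IL-10-Fc and at 28.32, 47.34 and 47.74 in BF10. All BF10 libraries lay above all aCSF1R libraries, and BF10 replicate 1 lay below Ctrl-IgG replicate 3. With median-of-ratios size factors, BF10 was called higher than Ctrl-IgG and aCSF1R (1.32 and 1.07). Quantile normalization (1.37 and 1.16) and the FPKM sum as covariate (1.17 and 1.07) gave the same 2 calls. Neither call was made in the main fit or with TPM scaling. BF10 exceeded Ctrl-IgG by 1.25 ± 0.48 (adjusted p = 0.0851), short of the threshold, and by 1.01 ± 0.26 (adjusted p = 0.0184) without the high-sum libraries. Against aCSF1R the same values were 0.88 ± 0.48 (adjusted p = 0.212) and 1.12 ± 0.24 (adjusted p = 0.00831).

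Within the treatment groups, much of the spread ran along the split by FPKM sum. In 5 of the 10 (Il10rb, Stat3, Tyk2, Bcl3 and Nfil3) all 4 high-sum libraries lay below all 8 others, against 25.2% of tested genes. The difference of medians, high-sum minus other libraries on the log2(FPKM + 1) scale, was -0.53 for the middle one of the tested genes, -1.98 for Stat3, -1.49 for Nfil3 and -1.38 for Il10rb. It was 0.38 for Il10 and below 0 for the other 9. Over the 12 libraries, deviations from the group means correlated at 0.56 to 0.99 (Pearson's r) between every pair of those 9 genes and at -0.56 to -0.20 between Il10 and each of them, where all points share the 4 high-sum libraries. Neutrophil markers (S100a8, S100a9, Csf3r and Cxcr2) had a median sum of 2160 FPKM in the high-sum libraries and 315 in the others, with ranges of 39.7 to 4389 and 29.2 to 970 that overlapped. These sums are mostly S100a8 and S100a9. Csf3r went the other way, at 1.66 to 4.54 FPKM in the high-sum libraries and 3.36 to 12.87 in the others. Cxcr2 was at 0.12 to 1.1 and 0.16 to 2.6 FPKM in the same order. Endothelial markers had median sums of 16.1 and 34.9 FPKM. The part of these cell types, or of RNA quality, in the split was not tested.

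The aCSF1R antibody called none of the 10 genes against Ctrl-IgG, and the share called over all tested genes was 0% as well, with 437 genes (2.76%) at an unadjusted p under 0.05 and 0 of the 10 among them. In 2 of the 10, Il10ra and Nfil3, the groups did not overlap, against 14.9% of tested genes. The median difference was 0.37 over the 10 genes and 0.11 over all tested genes. For BF10 against IL-10-Fc the count was again 0 of 10, with 2 of 15813 genes called (0.0126%). Il10 and Il10rb had unadjusted p-values of 0.0272 and 0.0377, in a comparison where 5.24% of genes were under 0.05, and Il10 did not overlap, as did 5.18% of genes. Intervals stayed wide: for Stat3 they ran from -0.65 to 2.23 and from -0.60 to 2.29 in these comparisons, so that neither sign was settled. Without the high-sum libraries both comparisons still called 0 of the 10, against 0% and 0.405% of tested genes.

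**Figure D3:**
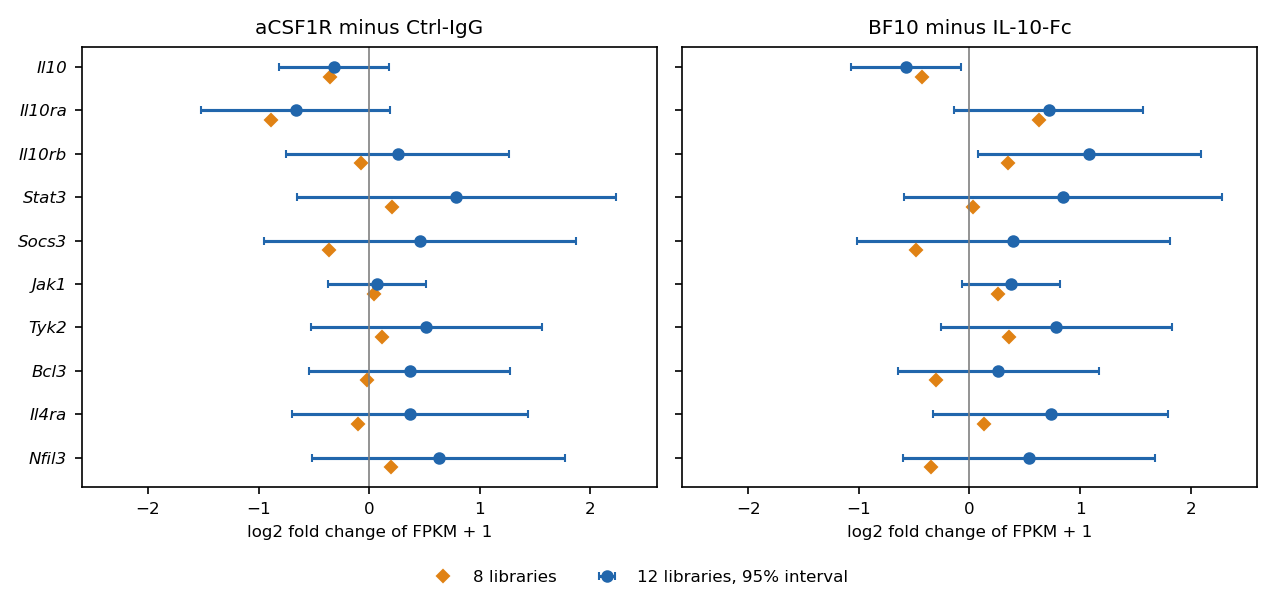
Log2 fold changes of FPKM + 1 (x axis) for the 10 genes (y axis) in aCSF1R against Ctrl-IgG (left) and BF10 against IL-10-Fc (right), with blue points and 95% intervals from all 12 libraries and orange diamonds from the 8 libraries outside the high-sum set. Of the 20 intervals, those of Il10 (-1.07 to -0.08) and Il10rb (0.07 to 2.09) in BF10 against IL-10-Fc exclude 0 before adjustment.

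Comparisons across the 2 sets called many genes but few of these. IL-10-Fc against Ctrl-IgG called 0 of the 10 while 33.7% of tested genes passed, with 1 of the 10 (Il10) not overlapping beside 37.3%, and BF10 against Ctrl-IgG called 0 of 10 beside 24.9%. IL-10-Fc against aCSF1R called Il10 as higher, 1 of 10 beside 11%, and Il10rb as lower, 1 of 10 beside 31.2%, in all 2 of 10 beside 42.2%. Both were also the genes whose groups did not overlap there, beside 56.1%. BF10 against aCSF1R called 0 of 10 beside 25%. These shares over all genes carry whatever separates the sets, including H2-Ea and Xist. In the last comparison 4 of the 10 (Il10ra, Bcl3, Il4ra and Nfil3) did not overlap, against 55.7% of tested genes. The comparisons share control libraries, and their counts are not independent of each other.

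Without the high-sum libraries the genes called in these 4 comparisons were others. BF10 exceeded aCSF1R in Il10ra (1.302), Tyk2 (0.85) and Il4ra (1.12), 3 of 10 beside 18.9% of tested genes called as higher. In that comparison 0 of 10 were called as lower, beside 21.7%. Against Ctrl-IgG BF10 was higher in Tyk2 (0.96) and Il4ra (1.01), 2 of 10 beside 18.8%, and lower in 0 of 10 beside 21.6%. IL-10-Fc, with replicate 3 as its lone library and assumed to vary like the other groups, was higher than Ctrl-IgG in Tyk2 (0.60, adjusted p = 0.0361; 1 of 10 beside 15.9%) and higher than aCSF1R in Socs3 (0.93) and Il4ra (0.99; 2 of 10 beside 16%). In the 8 libraries, Jak1, Tyk2 and Il4ra were higher in all 3 of IL-10-Fc and BF10 than in all 5 of Ctrl-IgG and aCSF1R, 3 of 10 genes where 25.4% of tested genes did so. None of the 10 lay below in that way, beside 36.8% of tested genes. Tyk2 was at 9.42 to 12.9 against 5.56 to 7.53 FPKM and Il4ra at 43.5 to 47.7 against 17.0 to 31.1. Within the 4 high-sum libraries, 4 of 10 genes (Il10, Socs3, Tyk2 and Il4ra) were higher in the 3 of IL-10-Fc and BF10 than in Ctrl-IgG replicate 2, beside 28.6% of tested genes. Il10rb was lower there (5.86 to 13.83 against 14.32 FPKM), 1 of 10 beside 49.7%. Tyk2 was at 2.94 to 4.65 against 1.97 FPKM and Il4ra at 13.5 to 28.3 against 7.94, while Jak1 overlapped (24.4 to 31.1 against 29.9).

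**Figure D4:**
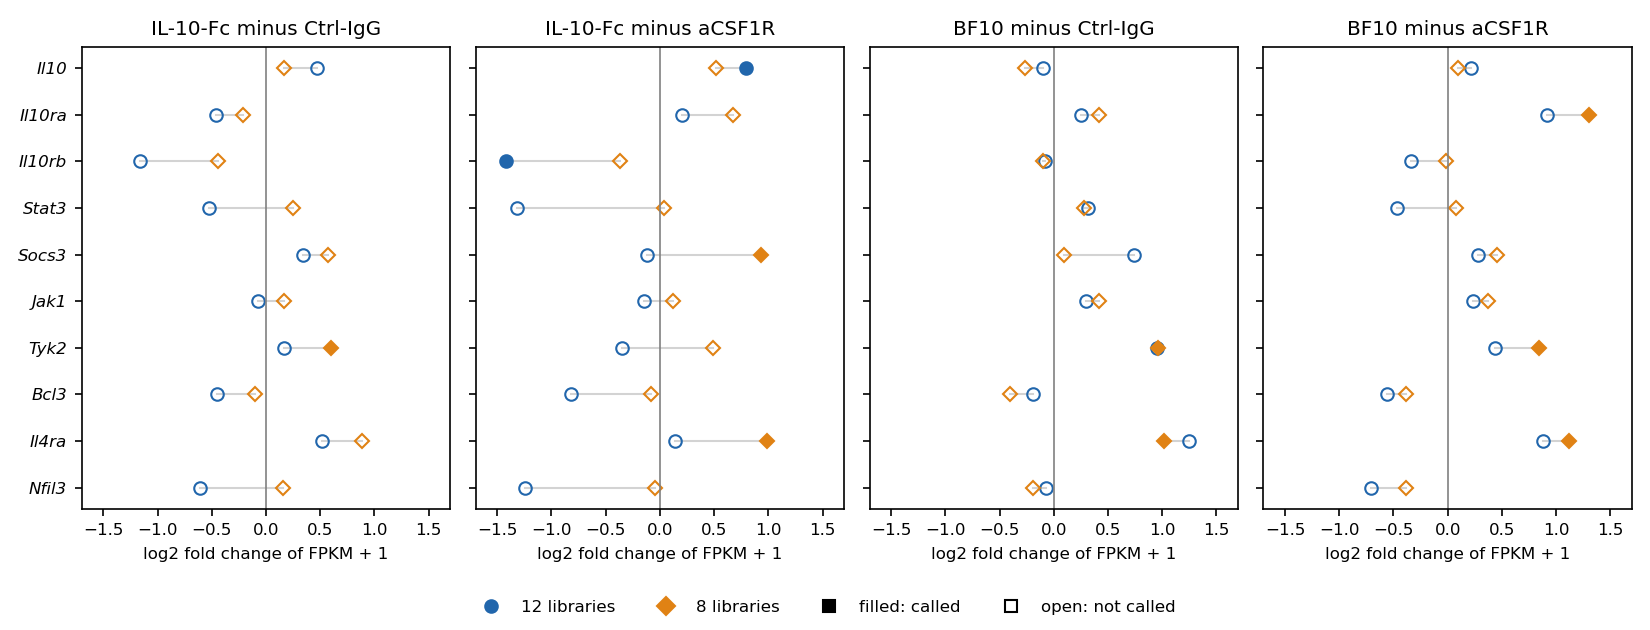
Log2 fold changes of FPKM + 1 (x axis) for the 10 genes (y axis) in the 4 comparisons across the sets, with blue circles from all 12 libraries and orange diamonds from the 8 outside the high-sum set, filled where called. Filled circles are Il10 (0.79) and Il10rb (-1.42) in IL-10-Fc against aCSF1R, and filled diamonds include Il10ra (1.302) in BF10 against aCSF1R and Tyk2 (0.96) in BF10 against Ctrl-IgG.

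For the question whether the fusion does more or less than both components added together, the change from IL-10-Fc to BF10 was set against the change from Ctrl-IgG to aCSF1R. None of the 10 genes passed, and 1 of all tested genes did (0.00632%). Il10ra came closest, at -0.67 in one arm and 0.72 in the other, a departure of 1.38 ± 0.55 (unadjusted p = 0.0285, adjusted p = 1.00), where 2.61% of genes had an unadjusted p under 0.05. Without the high-sum libraries the departure was 1.52 ± 0.36 (adjusted p = 0.274), where 0.139% of tested genes were called.

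The wider pathway was read from 7 lists of 104 genes in all, of which 90 passed the filter. In aCSF1R against Ctrl-IgG, in BF10 against IL-10-Fc and in the departure, 0 of the 90 were called. IL-10-Fc against Ctrl-IgG called 18 as higher (20% of the 90, beside 10.1% of all tested genes) and 7 as lower (7.78% beside 23.6%). Under median-of-ratios size factors the split became 25 to 4, beside 2598 higher and 2612 lower of all 15813 tested genes. BF10 against Ctrl-IgG called 16 (17.8% beside 11.8%) and 3 (3.33% beside 13.2%). IL-10-Fc against aCSF1R called 17 (18.9% beside 11%) and 19 (21.1% beside 31.2%). These became 23 and 8 under the same size factors, beside 2926 higher and 3094 lower of all tested genes. BF10 against aCSF1R called 17 (18.9% beside 11%) and 5 (5.56% beside 14%). In either direction the shares of the 90 were 27.8%, 21.1%, 40% and 24.4%, close to the 33.7%, 24.9%, 42.2% and 25% of all tested genes. Medians over the members of each list stayed between -0.59 and 0.76 in these 4 comparisons, except that of the cytokines that IL-10 restrains in BF10 against aCSF1R, at -0.86.

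Among cytokines that act through STAT3, 12 of 17 were testable and 3 rose and 1 fell in IL-10-Fc and in BF10 against Ctrl-IgG (33.3%, beside 33.7% and 24.9% of all tested genes). Csf3, which encodes the neutrophil growth factor G-CSF, was at 0.16, 0.26 and 1.41 FPKM in Ctrl-IgG, 68.5, 173 and 72.3 in IL-10-Fc and at 110, 18.8 and 31.1 in BF10, and rose by 5.98 ± 0.58 (adjusted p = 5.18e-05) and 4.76 ± 0.58 (adjusted p = 0.000270). Il24, a relative of IL-10, rose by 4.04 and 3.20, and Il23a, a subunit of IL-23, by 2.55 and 2.01. Cntf, a neurotrophic cytokine, fell by 1.37 and 1.296. In aCSF1R, Csf3 was at 0.66 to 0.83 FPKM. Neutrophil marker sums were 29.2 to 300 FPKM in Ctrl-IgG, 168 to 330 in aCSF1R, 970 to 4389 in IL-10-Fc and 483 to 1558 in BF10. Of that list, S100a8 and S100a9 were called as higher in IL-10-Fc and in BF10 against Ctrl-IgG, and Csf3r and Cxcr2 were not called. The part of neutrophils in the Csf3 difference was not tested.

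Of 19 partner receptor genes 13 were testable, and Il11ra1, the IL-11 receptor chain, rose in IL-10-Fc (1.98) and BF10 (1.78) against Ctrl-IgG, and in IL-10-Fc Il13ra1 rose by 1.05 and Il2rg fell by 1.00. The shares called were 23.1% and 7.69%, below those over all genes. Among the 8 other JAK and STAT genes, Jak2 rose by 2.72 ± 0.32 (adjusted p = 0.000151) in IL-10-Fc and 2.40 ± 0.32 in BF10. Its FPKM were 15.1, 23.5 and 17.4 in Ctrl-IgG, 16.1, 18.01 and 18.9 in aCSF1R, 147, 161 and 85.1 in IL-10-Fc and at 157, 86.3 and 76.0 in BF10, so that all 6 libraries of one set lay above all 6 of the other. Stat2 fell by 2.05 in IL-10-Fc.

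Of the 13 negative regulators, all testable, Socs2 (1.39 and 1.45) and Cish (0.98 and 1.09), both classic STAT5-induced inhibitors, rose in IL-10-Fc and BF10 against Ctrl-IgG, and 0 fell (15.4% called in each, below the share over all genes). Of the IL-10 response genes of macrophages 18 of 19 were testable, and 4 rose and 2 fell in IL-10-Fc and 5 rose and 1 fell in BF10 (33.3% in each, beside 33.7% and 24.9%). Arg1, the arginase of alternatively activated macrophages, rose by 3.11 and 3.60, the scavenger receptor Msr1 by 1.92 and 1.61 and the NF-κB inhibitor gene Tnip3 by 2.71 and 1.66. Hmox1, haem oxygenase, which IL-10 induces in macrophages, fell by 2.77 and 1.78. Macrophage marker sums were 482 to 976 FPKM in Ctrl-IgG, 1389 to 3384 in IL-10-Fc and 2005 to 2501 in BF10, and Mrc1 belongs to both lists. Of the markers, C1qa, C1qc, Mrc1 and Lyz2 were called as higher in IL-10-Fc and BF10 against Ctrl-IgG. Adgre1, Csf1r, Cd68 and C1qb were not called, and Adgre1 (-0.14) and Cd68 (-0.75) were below 0 in IL-10-Fc.

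STAT3 target genes (20 of 20 testable) gave 3 rises and 1 fall in IL-10-Fc and 2 rises in BF10 (20% and 10%, below the 33.7% and 24.9% over all genes). Lcn2, the siderophore-binding lipocalin, rose by 3.78 and 2.86 and Ccnd1, cyclin D1, by 2.36 in BF10. Mcl1, an anti-apoptotic gene, fell by 0.76 in IL-10-Fc. Of cytokine genes that IL-10 restrains, 11 of 13 were testable, and Il1a rose by 3.23 and 2.33, Il23a as above, and the chemokine Ccl4 fell by 1.00 and 1.24. The shares called were 36.4% and 27.3%. Without the high-sum libraries, 18 of the 25 pathway genes called in IL-10-Fc against Ctrl-IgG and all 19 of those in BF10 against Ctrl-IgG were called in the same direction, 72% and 100% beside 79.9% and 94.2% of all genes called.

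Likeness between genes was computed over the same 12 libraries, and the part of the split by FPKM sum in it was not tested. By Pearson's r of deviations from the group means over the 12 libraries, among 9519 genes, those most like Il10ra included Txnip (0.984) and Csf2rb (0.976), the shared chain of the GM-CSF receptor. Nearest to Il10rb were Ints3, Zfp652 and Pigq (0.997 to 0.998), and to Stat3 Arnt, Rbsn and Tnip1 (0.997 to 0.998). Socs3 was closest to Cdc42ep4, Arhgef19 and Pink1 (0.976 to 0.978). These values have an n of 12 that share 4 high-sum libraries, and no p is given.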

How the data were processed

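The authors sequenced stranded mRNA libraries of 12 tumours and deposited FPKM values for 55401 genes per library, rounded and not rescaled between libraries. The submitters' processing notes name STAR 2.7.5a, RSEM 1.3.3, DESeq2 1.30.0 and the GRCm38 (mm10) build, without their roles. The 4 deposited tables of the authors' own comparisons (fold changes, p-values and adjusted p-values) were not used.

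Groups followed the treatment label of each sample, and replicate numbers only name libraries. No label says that libraries of a group came from separate animals, so p-values measure the spread between these libraries. The 15813 genes that reached 1 FPKM in 3 or more libraries were tested with limma 3.58.1 in R 4.3.3 (lmFit, contrasts.fit, eBayes with trend) on log2(FPKM + 1), in one model of all 12 libraries without covariates, and differences on that scale are too small for genes at low levels. Benjamini-Hochberg adjustment ran over all tested genes, and calls needed an adjusted p below 0.05 with a fold of 1.5 or more. The ratio of Il10ra to Ptprc was compared by an exact permutation test. The script was tested on simulated data. FPKM keep no read counts, so depth and the counting error of single values are unknown.

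The 10 genes, the lists and the tests were chosen with earlier results of these data known. Named genes were the 10, the 3 genes most alike to Il10ra, Il10rb, Stat3 and Socs3 (mean of at least 5 FPKM, no predicted genes or pseudogenes), and at most 4 called genes per pathway list and comparison, those with the largest change; some of the genes these rules name are not reported here. Marker genes outside these rules were named after their values were seen. Gene positions came from GENCODE M21 (99.5% of identifiers matched) and promoter windows from RefSeq. Alternatives were a pseudocount of 0.1, other filters, TPM scaling, median-of-ratios size factors, quantile normalization, the groups of a comparison alone, terms for the FPKM sum or for title codes (C1 to C4 against C5 to C7), and leaving out each library. Leaving out the 4 high-sum libraries was added after seeing the data.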

Additional observations from a re-analysis of the deposited data

How the results depend on the processing

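In the departure and in both comparisons within a set (BF10 with IL-10-Fc, aCSF1R with Ctrl-IgG), 0 of the 10 genes were called under every alternative run. At most 0.727% of all tested genes were called in any of these. Below, percentages in brackets are the shares called over all tested genes in the same fit. IL-10-Fc against Ctrl-IgG called 0 of 10 as reported (33.7%), 2 with median-of-ratios size factors (32.9%) and 1 with a term for title codes (42.5%). It called 2 with the FPKM sum as covariate (45.2%) and 0 to 2 when a single library was left out (22.5% to 50.9%). BF10 against Ctrl-IgG called 0 as reported (24.9%), 2 with those size factors (27.2%) and 2 with quantile normalization (29.4%). It called 2 with the FPKM sum (43.6%), 2 without the high-sum libraries (40.4%) and 0 to 1 with 1 library left out (16.5% to 23.6%). IL-10-Fc against aCSF1R called 2 as reported (42.2%) and 0 with all genes above 0 FPKM tested (15.2%). With a mean of at least 5 FPKM it called 1 (43.5%), and Il10 was then not tested. It called 3 with quantile normalization (39.5%) and 4 with title codes (52.2%). With the FPKM sum it called 2 (42.6%), Il10ra and Il4ra in place of Il10 and Il10rb. With 1 library left out it called 0 to 5 (26.7% to 60.6%), the 5 being without IL-10-Fc replicate 3 (60.6%). BF10 against aCSF1R called 0 as reported (25%), 2 with size factors (26.1%), 2 with quantile normalization (29.6%) and 3 with the FPKM sum (42.6%). It called 3 without the high-sum libraries (40.6%), 1 with its own groups alone (31.8%) and 0 to 1 with 1 library left out (15.8% to 21.5%).

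Pathway genes called moved with the share over all tested genes. In IL-10-Fc against Ctrl-IgG they went from 25 (33.7%) to 40 with the FPKM sum (45.2%) and 13 with its own groups alone (17.3%). In BF10 against Ctrl-IgG they moved from 19 (24.9%) to 39 with the FPKM sum (43.6%) and 37 without the high-sum libraries (40.4%). In BF10 against aCSF1R they moved from 22 (25%) to 35 (42.6%) and 44 (40.6%) in the same order. In IL-10-Fc against aCSF1R they moved from 36 (42.2%) to 23 with all genes tested (15.2%). With 1 library left out they ranged from 18 to 53 in IL-10-Fc against aCSF1R (26.7% to 60.6%). They ranged from 13 to 21 in BF10 against aCSF1R (15.8% to 21.5%) and from 0 to 1 in BF10 against IL-10-Fc (0.00632% to 0.727%).

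Socs3 in IL-10-Fc against aCSF1R reversed to 0.93 without the high-sum libraries. The log2 ratio of Il10ra to Ptprc reversed in BF10 against IL-10-Fc without the high-sum libraries (-0.43), and in aCSF1R against Ctrl-IgG it ranged from -0.79 to 0.37 with 1 library left out. The causes were not tested.

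Of 1163 recomputed fold changes of the 10 genes, 1109 kept their side of the threshold without a reversal, 39 newly passed and 14 no longer passed. In 102 of the 1109 the sign differed while neither value was called. Median-of-ratios size factors moved the median of all tested genes from -0.39 to 0.01 in IL-10-Fc against Ctrl-IgG and from -0.51 to 0.00 in IL-10-Fc against aCSF1R, and the share of higher calls from 30.0% to 49.9% and from 26.0% to 48.6%. No paired analysis was possible because numbers only follow the order of the samples, and of the unexplained title codes only C6 recurs across groups (IL-10-Fc, aCSF1R and BF10), so that no 2 groups share more than 1 code.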
